A study of Mus musculus with 6 samples.

Results

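The collagen genes of the mouse were followed across the cell clusters, the astroglial sub-clusters and the 2 ages of a single-cell RNA-Seq study of the striatum. They were chosen by name, as every gene whose symbol is Col, a number, a and a number, which gave 44 of the 32285 genes in the count table. Cells were prepared by magnetic sorting for the astrocyte surface antigen ACSA2 from the striatum of wild type male C57BL/6 mice, 3 libraries at postnatal day 3 (P3) and 3 libraries at 3 months (3m), with no allele or agent added in either group. Each preparation pooled several animals. Libraries were made with the 10x Chromium 3′ chemistry, and each transcript molecule was counted once by its unique molecular identifier (UMI). Levels are CPM, the UMIs of a gene per 1000000 UMIs of the same sum of cells, with no scaling for gene length, so that a level of one gene against another also carries how well each 3′ end is captured.

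Collagens are proteins of the extracellular matrix built from 3 chains wound into a triple helix. Fibrillar collagens form the fibres of connective tissue, fibril-associated collagens coat those fibres, and type IV collagen forms the network of basement membranes. In the brain, the basement membrane around blood vessels lies between endothelial cells, mural cells and the endfeet of astrocytes. Chains are hydroxylated and folded in the endoplasmic reticulum, trimmed and cross-linked outside the cell, and removed by proteases.

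Total UMIs lay between 32193875 and 37795021 in the P3 libraries and between 5471573 and 10522151 in the 3m libraries, so low members were measured less precisely at 3m. Of 16690 barcodes, 14373 cells passed the filter of the study, and 37 barcode sequences were found in more than 1 library. Astroglial clusters held 8874 cells at P3 and 1118 at 3m. Some clusters came mainly from one library or held markers of more than one cell type. Cluster AST_P3_4, with a median of 1019 UMIs, came mostly from P3 replicate 3. The cluster named for pericytes, PER_6, had 3 smooth muscle markers, 1 pericyte marker and 1 fibroblast marker among its 10 leading genes. Its 7 pericyte markers summed to 12710 CPM, above the 5976 CPM of its 3 smooth muscle markers. It is given by its number. Cluster END_12, led by haemoglobin genes, was kept out of the endothelial sums compared between ages, which were made of END_7 and END_17. END_13 was left out as well, after an earlier check found shallow or haemoglobin-led cells in these clusters. In the compared sums the 4 erythroid (haemoglobin) markers still came to 9578 to 26840 CPM at P3, with none at 0. They came to 19160 to 42600 CPM at 3m, also with none at 0. Their part in the endothelial results was not tested. Shares and levels by cell class take all 4 END clusters together.

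The type IV genes lie in head-to-head pairs, and these are shown because the pairs were not always measured in the same cells. *Col4a1* (chromosome 8, 11198423 to 11312826, minus strand) and *Col4a2* (chromosome 8, 11312805 to 11449287, plus strand) share 22 bases at their starts in the GENCODE M21 gene models (GRCm38). *Col4a4* (chromosome 1, 82448423 to 82586849, minus strand) and *Col4a3* (chromosome 1, 82586921 to 82722059, plus strand) are 71 bases apart. *Col4a6* (chromosome X, 141165403 to 141474076, minus strand) and *Col4a5* (chromosome X, 141475385 to 141689234, plus strand) are the third pair, with 1342 bases between their RefSeq starts. The sequences below are from RefSeq (GRCm38.p6), which had a promoter entry for 35 of the 44 genes. Capitals mark GGGCGG (GC box) or CCAAT on either strand. TATAAA was searched as well and was in none of the 4 windows.
Col4a1 and Col4a2, shared start, chr8:11312805-11312826, plus strand: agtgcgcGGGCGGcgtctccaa
Col4a4 to Col4a3, chr1:82586850-82586920, minus strand: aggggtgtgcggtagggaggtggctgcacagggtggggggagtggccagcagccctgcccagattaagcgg
Col4a5, upstream, chrX:141475169-141475384, plus strand: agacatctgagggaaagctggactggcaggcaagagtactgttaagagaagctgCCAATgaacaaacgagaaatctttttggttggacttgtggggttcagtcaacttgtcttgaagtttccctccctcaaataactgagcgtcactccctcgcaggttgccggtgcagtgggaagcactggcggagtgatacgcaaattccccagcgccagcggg
Col4a6, upstream, chrX:141474077-141474326, minus strand: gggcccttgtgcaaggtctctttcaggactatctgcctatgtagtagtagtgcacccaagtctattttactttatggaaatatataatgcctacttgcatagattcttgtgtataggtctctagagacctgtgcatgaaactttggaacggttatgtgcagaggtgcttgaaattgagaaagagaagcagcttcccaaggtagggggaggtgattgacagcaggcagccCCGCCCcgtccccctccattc
The first window is exonic in the annotation and the other three hold no annotated exon. GGGCGG was in the first window, as in 4.06% of 27025 promoters over the same bases, and upstream of *Col4a6*, as in 32.9% of promoters over 250 bases. CCAAT was upstream of *Col4a5*, as in 31.5% of promoters over the 216 bases directly before their RefSeq starts. The *Col4a5* window ends at its GENCODE start, which lies upstream of its RefSeq start, so these windows differ in position. The 71 bases between *Col4a4* and *Col4a3* held none of the 3, which 21.2%, 13.9% and 4.72% of promoters hold over that length.

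The members divided the cell classes among themselves. Clusters were made from all genes of these cells, so levels by cluster are a description with no test. *Col4a1* and *Col4a2*, the chains of the common basement membrane network, were vascular. Of the *Col4a1* UMIs at P3, 61.1% ± 2.24 (SD, n = 3 libraries) lay in the 4 END clusters together and 35.1% ± 2.96 in PER_6. Astroglial cells held 3.57% ± 2.03 of the *Col4a1* UMIs, while they held 73.6% ± 6.74 of all UMIs. Microglia, which serve here as a class with little collagen, had 3 CPM of *Col4a1* at P3.

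*Col4a5*, a chain of the minor type IV networks, was distributed the other way. Of its UMIs at P3, 95.9% ± 0.74 lay in astroglial cells. *Col4a3* had 227 UMIs in the 4 END clusters at P3, or 11 CPM, and its neighbour *Col4a4* had 10 UMIs there.

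PER_6 at P3 had the highest levels of several fibrillar members. *Col3a1*, which forms fine fibrils, had 60.3% ± 2.25 of its P3 UMIs in PER_6 and 38.4% ± 1.63 in the 4 END clusters. *Col9a3*, a chain of fibril-associated type IX collagen, stood highest in the oligodendrocyte precursor cluster OPC_18, at 353 and 708 CPM in the 2 P3 libraries with enough cells there. *Col26a1* was at 112 ± 16.0 CPM in PER_6 and 4.41 ± 0.65 CPM in astroglial cells at P3. *Col27a1* was at 21.4 ± 5.42 CPM in the microglial cluster MIC_16 at P3 and at 59.3 and 29.8 CPM in its 2 larger libraries at 3m. MIC_16 held only 19 UMIs of *Col27a1* at P3 and 9 over all 3m libraries. *Col8a2*, a chain of a network-forming collagen, had 12 of its 12 UMIs in cells past the filter at 3m in the unidentified cluster LOW_23. These came from 14 cells of LOW_23, too few in any library for a level per library, and 3m replicates 1 and 3 held 0 UMIs of *Col8a2*. The 4 multiciliated cell markers summed to 7845 CPM in LOW_23, with none at 0.

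**Figure D1:**
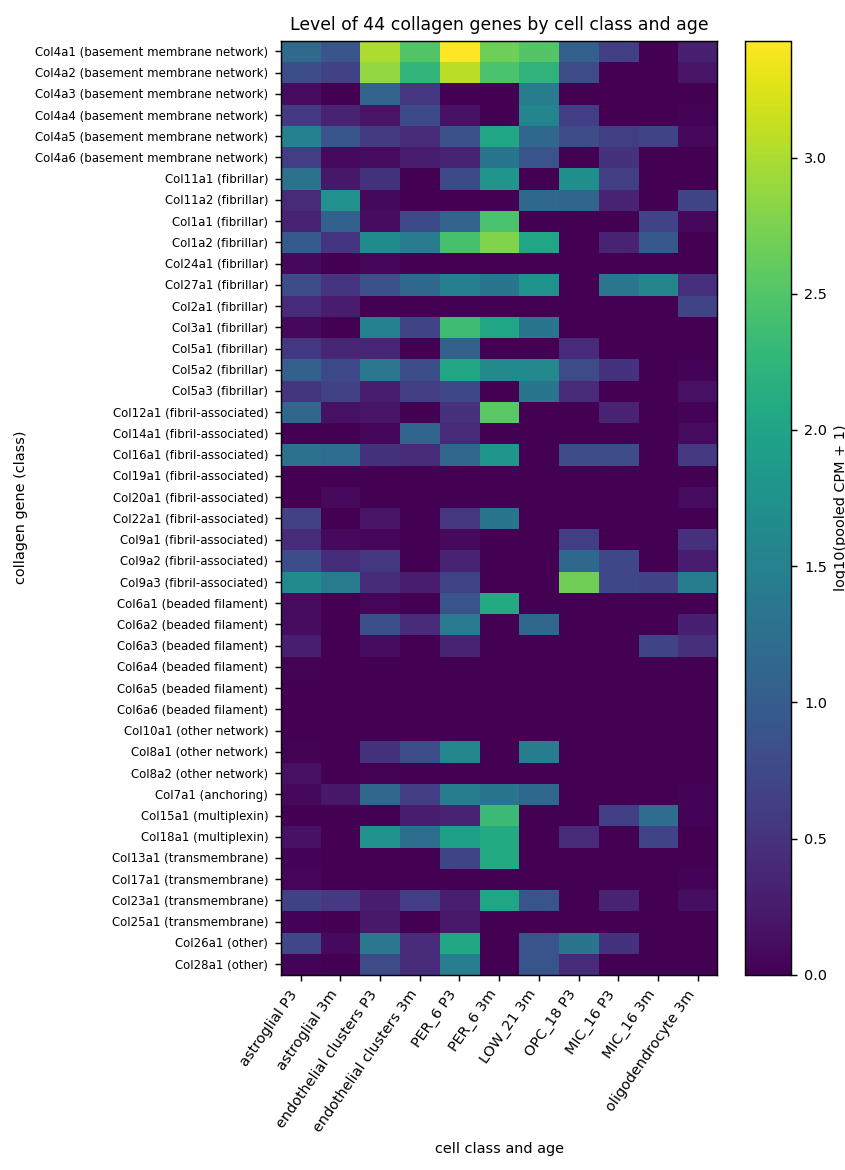
Pooled level of the 44 collagen genes (rows, with their class) in cell classes at each age (columns), as log10 of CPM + 1. *Col4a1* and *Col4a2* are brightest in PER_6 and the endothelial clusters, and *Col9a3* is brightest in OPC_18.

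The first comparison asked how the collagen genes differed between ages in whole preparations. These sums took all barcodes, including those that failed the filter. They held 105618765 UMIs at P3, of which 104853443 were in cells past the filter. At 3m they held 23138503 UMIs, of which 17583275 were in such cells. With cells past the filter only, 5175 of 15134 genes were called. A gene was called where edgeR's quasi-likelihood test gave an adjusted p no larger than 0.05 and the ages differed by 1 or more on the log2 scale. By this rule 5 of the 34 members tested rose and 19 fell from P3 to 3m. Of all 15407 genes tested, 34.5% were called, 18.4% higher and 16.1% lower. The median log2 fold change was -1.74 over the members tested and 0.00 over all genes. The other 10 members (*Col6a4*, *Col6a5*, *Col6a6*, *Col10a1*, *Col13a1*, *Col17a1*, *Col19a1*, *Col20a1*, *Col24a1* and *Col25a1*) were too low to be tested. In such sums, fewer cells of a type and less RNA per cell cannot be told apart.

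Summed over all members, collagen transcripts came to 755 ± 227 CPM at P3 and 137 ± 11.4 CPM at 3m (SD, n = 3 each). The makeup of the preparations moved with this sum. Oligodendrocytes held 0% of the UMIs of cells past the filter at P3 and 63.6% at 3m, and the 5 oligodendrocyte markers summed to 5.28 to 8.68 CPM at P3, with 2 to 3 of them at 0, and to 13280 to 24040 CPM at 3m, with none at 0. PER_6 made up 4.68% to 8.75% of the cells past the filter in the P3 libraries and 0.286% to 0.749% in the 3m libraries. END_7 was at 4.73% to 6.88% at P3 and END_17 at 3.36% to 7.37% at 3m, which overlap, and LOW_21 was at 0% at P3 and 1.57% to 3.12% at 3m. The part of these in the results on whole preparations was not tested. *Col4a1* was at 415, 183 and 368 CPM in the P3 libraries and at 22.8, 18.5 and 30.3 CPM in the 3m libraries. The ages did not overlap, with P3 replicate 2 the lowest of the P3 libraries, and the log2 fold change was -3.55 ± 0.31 (SE, adjusted p = 2.01e-05). By class, 10 of the 11 fibrillar genes were tested, of which 3 rose and 5 fell, and 7 of the 9 fibril-associated genes, of which 1 rose and 3 fell. All 6 type IV genes were tested, and 5 were lower, *Col4a4* being the exception (log2 fold change -0.87, adjusted p = 0.121).

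Among astroglial cells, 23 members were tested, and 2 were higher and 11 lower at 3m. Of all 13530 genes tested, 32.1% were called, 15.8% higher and 16.3% lower. Summed collagen was at 207 ± 35.4 CPM at P3 and 146 ± 3.8 CPM at 3m. Sub-clusters taken as telencephalic held 43880512 of the 77526661 UMIs at P3 and 3307796 of the 4473981 at 3m. This set also leaves out the cycling progenitor sub-clusters. An alternative with this set only called 3657 of 12335 genes. The part of region in these results was not tested further. Without P3 replicate 1, 2 or 3 the count of called members was 8, 6 and 6, with 11 members tested in each case.

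The 2 members that rose were both fibrillar. *Col11a2*, a chain of type XI collagen, was at 1.61, 1.05 and 2.28 CPM in the P3 libraries and at 58.8, 43.4 and 62.5 CPM in the 3m libraries. Every 3m library was far above every P3 library, and the log2 fold change was 5.26 ± 0.26 (adjusted p = 9.91e-09). Oligodendrocytes of the same 3m libraries had 3.86, 3.15 and 6.27 CPM of *Col11a2*.

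*Col1a1*, a chain of type I collagen, was at 1.21, 1.21 and 1.18 CPM at P3 and at 12.1, 10.8 and 9.51 CPM at 3m. The libraries of each age lay close together and the ages did not overlap, with a log2 fold change of 3.34 ± 0.33 (adjusted p = 3.05e-06). *Col1a2*, the partner chain of type I collagen, went the other way, from 7.79, 7.58 and 9.6 CPM to 0, 3.25 and 2.72 CPM. Its log2 fold change was -1.71 ± 0.48 (adjusted p = 0.0092).

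*Col11a1*, the other main chain of type XI collagen, was at 19.9, 14.5 and 20.8 CPM at P3 and at 0.86, 0 and 1.36 CPM at 3m. The 3m libraries held 3 UMIs of it in all, and pooled P3 was 27.0 times pooled 3m (95% counting interval 9.2 to 131, adjusted p = 8.29e-06 by edgeR). Thus the 2 type XI genes moved in opposite directions in the same cells.

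*Col12a1*, which encodes a fibril-associated collagen, was at 14.7, 11.9 and 12.1 CPM at P3 and at 0, 0 and 1.36 CPM at 3m. From 990 and 2 UMIs, pooled P3 was 28.6 times pooled 3m (95% counting interval 7.89 to 236, adjusted p = 3.76e-05). *Col22a1*, another fibril-associated member, had 291 UMIs at P3 and 0 at 3m, which made it at least 5.6-fold lower against a floor of 3 UMIs over the 3m group.

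*Col4a5* was at 29.1, 29.1 and 36.8 CPM at P3 and at 6.05, 8.13 and 7.47 CPM at 3m. The ages were well apart, and the log2 fold change was -1.91 ± 0.23 (adjusted p = 2.06e-05). Its neighbour *Col4a6* also fell, from 243 UMIs to 1 UMI, a ratio of 14 (95% counting interval 2.49 to 556, adjusted p = 0.00332). *Col27a1* and *Col9a2* fell as well (adjusted p = 0.0291 and 0.0484), but both lost the call with DESeq2 (adjusted p = 0.0513 and 0.056) and without 3m replicate 1 (0.0705 and 0.129) or 3m replicate 3 (0.104 and 0.137). *Col27a1* also lost it without P3 replicate 2 (0.0583) or P3 replicate 3 (0.0526).

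The remaining called members were low. *Col26a1* had 338 UMIs at P3 and 1 at 3m, a ratio of 19.5 (95% counting interval 3.48 to 773, adjusted p = 0.0011). *Col9a1*, a further chain of type IX collagen, had 132 UMIs and 1, a ratio of 7.62 (1.34 to 303, adjusted p = 0.0418). *Col6a3*, a chain of the beaded filaments of type VI collagen, had 74 UMIs and 0, at least 1.42-fold lower at 3m against the same floor (adjusted p = 0.0309).

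*Col16a1*, a fibril-associated member, was at 22.8, 14.2 and 17.5 CPM at P3 and at 14.7, 16.3 and 15.6 CPM at 3m. The ages overlapped and the log2 fold change was -0.02 ± 0.23 (adjusted p = 0.951). *Col4a1* was at 7.26, 10.7 and 25.1 CPM at P3 and at 3.46, 10.9 and 4.75 CPM at 3m, with P3 replicate 3 standing above the rest, and it was not called (adjusted p = 0.193). The 6 endothelial markers summed to 18.3 to 38.5 CPM in the P3 astroglial sums and to 0.86 to 6.11 CPM at 3m, with none of the 6 at 0 in any P3 library and 2 to 5 of them at 0 in the 3m libraries. In the same sums the 3 smooth muscle markers went from 45.9 to 83.1 CPM at P3 to 0.68 to 1.09 CPM at 3m, with up to 1 and 1 to 2 of them at 0, and the 3 cycling markers from 350 to 455 CPM to 0 to 0.54 CPM, with none and 2 to 3 at 0. The 5 oligodendrocyte markers went the other way, from 5.1 to 6.27 CPM with 2 to 3 at 0 to 703 to 1852 CPM with none at 0. The part of the oligodendrocyte markers in the astroglial results was not tested. For the cycling markers, one alternative left out clusters GPC_8 and GPC_9, where these summed to 1567 and 1532 CPM. It called 3702 of 13128 genes, against 4344 of 13530 in the main fit, and no called member changed direction. Clusters AST_P3_19 and AST_P3_4, at 504 and 414 CPM of the cycling markers, remained in it. Cells with 2 or more vascular marker UMIs were left out in another alternative, which kept 5032 cells at P3 and 994 at 3m. In it 11 of the members were called, 2 higher and 9 lower, against 3621 of 12128 genes called in either direction.

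**Figure D2:**
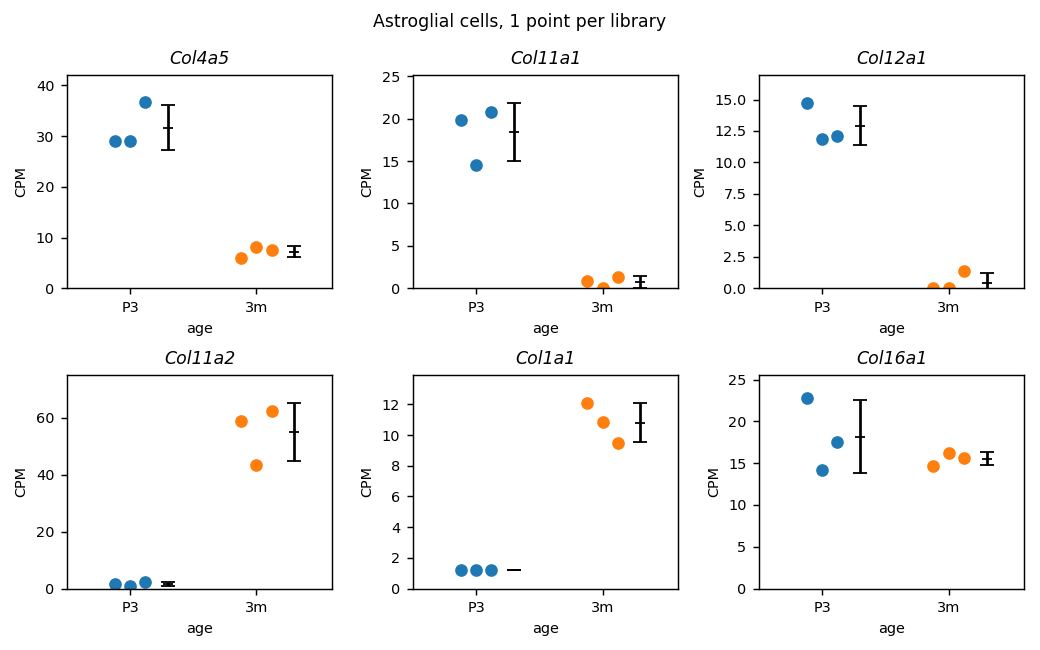
Level in astroglial cells (CPM, linear axis from 0) of 6 collagen genes at P3 and 3m, with 1 point per library and the mean ± SD (n = 3) beside the points. *Col4a5*, *Col11a1* and *Col12a1* are lower and *Col11a2* and *Col1a1* higher at 3m without overlap, and the ages overlap for *Col16a1*.

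The P3 astroglial sub-clusters differed in which collagen genes they held, as a description. *Col9a2*, a chain of type IX collagen, was at 23.0 ± 4.98, 26.0 ± 2.14 and 16.8 ± 1.91 CPM in sub-clusters 3, 5 and 10 (n = 3 libraries each), whose cells, per the study, grouped with non-telencephalic astrocytes of a reference dataset and may come from adjacent regions. In sub-clusters 0, 1, 2 and 11 it was at 2.3 ± 0.27, 2.7 ± 2.43, 0.91 ± 0.39 and 3.93 ± 2.23 CPM. The libraries of these sets did not overlap.

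*Col4a4* was at 35.2 ± 11.6 CPM in sub-cluster 10 and at 7.78 ± 2.0 CPM in sub-cluster 3, the next highest of the sub-clusters with 3 libraries, with no overlap. *Col12a1* was highest in sub-cluster 11, at 46.2 ± 5.18 CPM, and at 1.18 ± 1.02 CPM in sub-cluster 3. *Col16a1* was at 26.7 ± 5.14 CPM in sub-cluster 0 and at 10.3 ± 2.44 CPM in sub-cluster 3, again without overlap.

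*Col4a5* was at 58.9 ± 5.5 CPM in sub-cluster 11, 62.5 ± 10.4 CPM in sub-cluster 3 and 15.3 ± 0.96 CPM in sub-cluster 2. Sub-clusters 11 and 3 did not differ beyond their spread, and both lay above sub-cluster 2.

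Among adult sub-clusters, *Col11a2* was at 68.4 and 69.5 CPM in the 2 libraries of sub-cluster 7, at 63.8 CPM in the 1 library of sub-cluster 14 and at 19.1 and 25.6 CPM in the 2 libraries of sub-cluster 13. Sub-clusters 7 and 14 thus lay above sub-cluster 13, which the study also placed near non-telencephalic cells of the reference. Sub-cluster 12, nearly all from P3 replicate 3, had 470 CPM of *Col4a1*. Leaving it out kept the count of called members at 13.

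**Figure D3:**
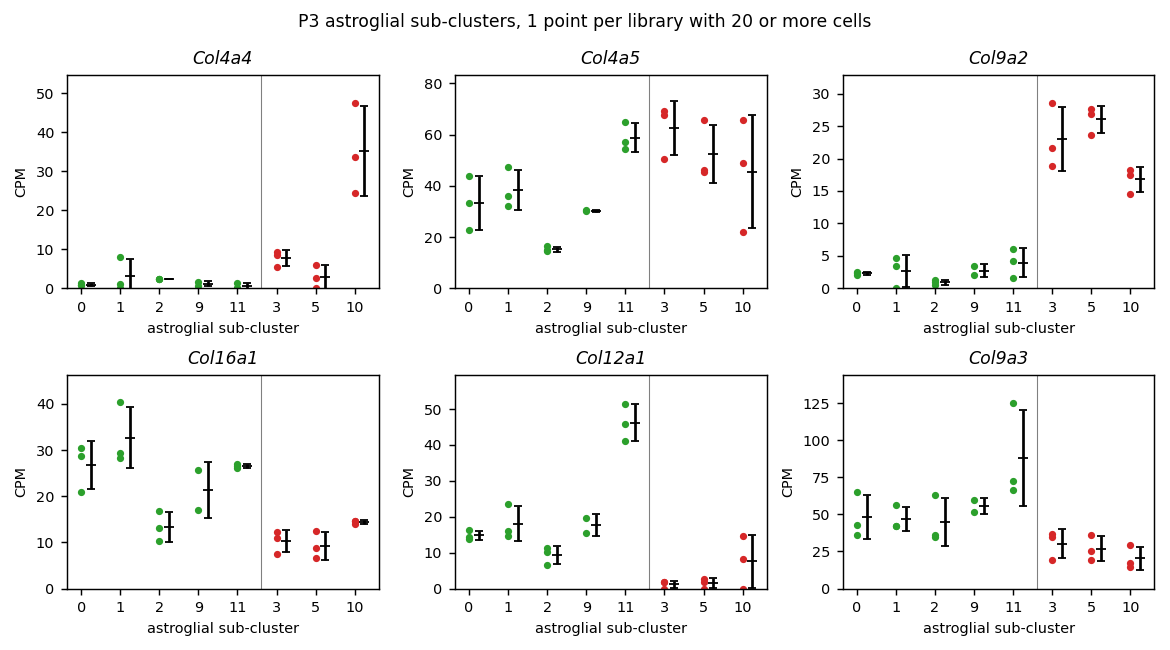
Level (CPM, linear axis from 0) of 6 collagen genes in P3 astroglial sub-clusters, with 1 point per library of 20 or more cells and the mean ± SD beside them (n = 3, or 2 for sub-cluster 9). Sub-clusters right of the grey line (red) grouped with non-telencephalic cells of a reference dataset in the study and those left of it (green) were not named as doing so, and *Col9a2* lies between 14.6 and 28.5 CPM in the red sub-clusters.

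For endothelial cells, P3 was represented by the 605 cells of END_7 and 1 cell of END_17, and 3m by the other 163 cells of END_17, so cluster and age cannot be told apart. Of the 13 members tested, 1 was higher and 9 were lower at 3m. Of all 10271 genes tested, 22.3% were called, 11.6% higher and 10.7% lower. Summed collagen was at 2081 ± 201 CPM at P3 and 601 ± 42.5 CPM at 3m. Without P3 replicate 1, 6 members were called, with 7 tested.

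*Col4a1* was at 1151, 952 and 1051 CPM at P3 and at 324, 292 and 324 CPM at 3m. The libraries of each age were close together, and the log2 fold change was -1.84 ± 0.20 (adjusted p = 5.55e-07). *Col4a2* was at 875, 768 and 704 CPM at P3 and at 212, 125 and 170 CPM at 3m. It fell by 2.28 ± 0.21 on the log2 scale (adjusted p = 1.13e-07), and its ages did not overlap.

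*Col18a1*, a basement membrane member whose end fragment is endostatin, was at 71.8, 61.7 and 45.1 CPM at P3 and at 19.6, 23.4 and 7.3 CPM at 3m. The ages did not overlap and the log2 fold change was -1.96 ± 0.33 (adjusted p = 0.000125). *Col7a1*, which forms anchoring fibrils, fell by 2.09 on the log2 scale (adjusted p = 0.00576) and *Col3a1* fell by 3.12 (adjusted p = 3.33e-05). *Col1a2* (adjusted p = 0.0209) overlapped between ages and lost its call without P3 replicate 1 (0.0682), 3m replicate 2 (0.0546) or 3m replicate 3 (0.105). *Col4a3* (adjusted p = 0.014) lost its call without 3m replicate 1 (0.096) or 3m replicate 3 (0.0721).

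*Col14a1*, a fibril-associated member, was the member that rose. It was at 0.14, 0 and 0.14 CPM at P3 and at 8.89, 7.78 and 19.5 CPM at 3m, from 2 and 15 UMIs, so that pooled P3 was 0.00881 of pooled 3m (95% counting interval 0.000977 to 0.0379, adjusted p = 1.42e-06). *Col14a1* fell below the filter on low counts and was not tested when any one of the P3 libraries, 3m replicate 1 or 3m replicate 3 was left out. END_7 had a median of 26510 UMIs per cell and END_17 one of 5953. The 7 pericyte markers summed to 2012 to 3554 CPM in the P3 endothelial sums and to 6432 to 6801 CPM at 3m, with none of the 7 at 0, and the 7 fibroblast markers to 45.9 to 58.1 CPM and 99.8 to 144 CPM, with 3 to 4 and 1 to 3 of them at 0. Their part in these results was not tested beyond one alternative. It left out cells with 2 or more mural marker UMIs and kept 37 cells at P3 and 63 at 3m. In it 2 members could be tested and both were called lower, against 450 of 1904 genes called in either direction.

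**Figure D4:**
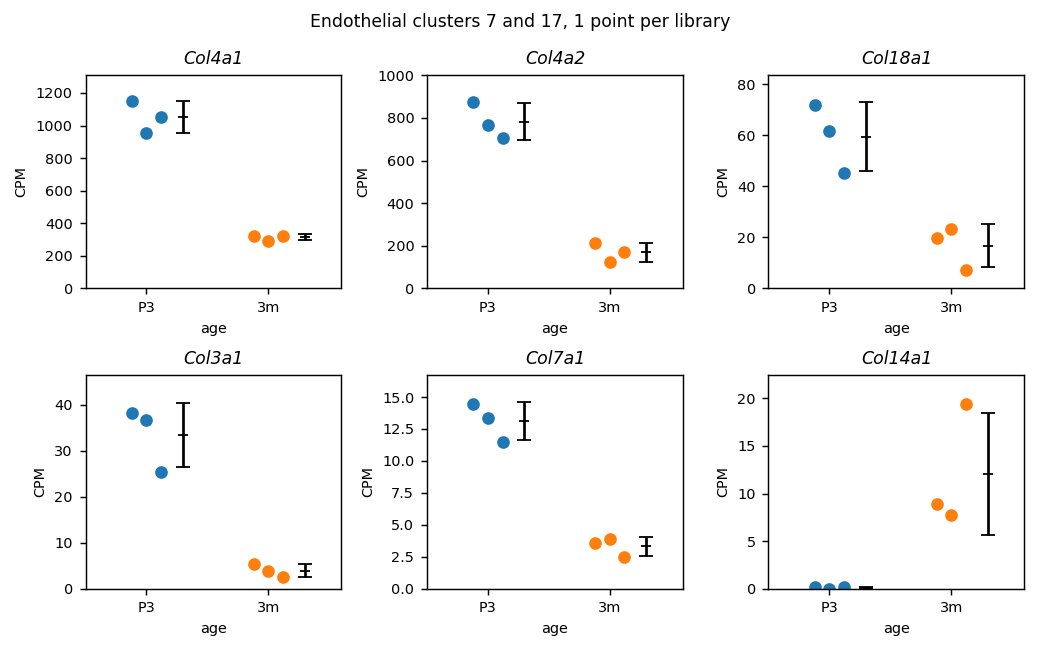
Level in endothelial clusters 7 and 17 (CPM, linear axis from 0) of 6 collagen genes at P3 and 3m, with 1 point per library and the mean ± SD (n = 3) beside the points. The ages do not overlap for any of the 6, and *Col14a1* is the one that is higher at 3m.

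Cluster PER_6 had 628 cells at P3 and 16 at 3m. Its 3m libraries held 6, 4 and 6 cells with 22488, 9656 and 16422 UMIs, so single UMIs weigh heavily in its 3m levels. Cluster LOW_21, whose 68 cells were all from 3m, had a summed level of the 7 pericyte markers of 43500 CPM. Of this, *Vtn* alone was 33220 CPM. Over both ages PER_6 had 12710 CPM, with none of the 7 at 0 in either cluster. At 3m alone PER_6 had 6226, 9528 and 8708 CPM, with 2 of the 7 at 0 in each library. PER_6 at 3m thus did not hold all cells with these markers. With LOW_21 added, 9 of 15 members tested were called, 3 higher and 6 lower. In that fit 1065 of 7224 genes were called, 41.2% of them higher. In PER_6 alone, of the 14 members tested, 3 were higher and 3 lower at 3m, against 11.4% of 6329 genes called, 2.39% higher and 8.97% lower. Over all genes tested the median log2 fold change lay at -0.80 here, so that changes stand relative to that shift. *Col4a1* was at 2754, 2162 and 3022 CPM at P3 and at 445, 518 and 487 CPM at 3m, the latter from 23 UMIs. The ages were far apart, and the log2 fold change was -3.03 ± 0.48 (adjusted p = 2.41e-08).

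*Col15a1*, a basement membrane zone member, rose from 5 UMIs at P3 to 11 UMIs at 3m, or 1.02 ± 1.11 and 244 ± 66.4 CPM (log2 fold change 6.89, adjusted p = 8.42e-15). *Col1a1* rose from 12.2 ± 11.4 to 322 ± 174 CPM, the latter from 14 UMIs (log2 fold change 4.07, adjusted p = 3.93e-09). The 7 fibroblast markers moved with these members, and summed to 135 to 159 CPM at P3 and to 2223 to 8221 CPM at 3m, with up to 3 of them at 0 in a library of either age. Their part in the result was not tested. Without P3 replicate 1, 2 or 3 the count of called members was 3, 3 and 2, with 3 members tested. *Col4a2* lost its call without P3 replicate 3 (adjusted p = 0.0502) and *Col6a1* without 3m replicate 3 (0.342).

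Within PER_6 at P3, 48 of 628 cells held UMIs of at least 2 of the 7 fibroblast markers and 369 held none. *Col1a1* was at 72.9, 290 and 11.3 CPM in the first set and at 0, 1.65 and 1.54 CPM in the second. *Col4a1* was at 2350, 1825 and 2997 CPM in the first set and at 2637, 2144 and 3047 CPM in the second, and the sets overlapped. The first set was 21, 10 and 17 cells in the 3 libraries, under the minimum of 20 used for levels by cluster in 2 of them. P3 replicate 3 held 3 UMIs of *Col1a1* in all of PER_6.

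The difference of the age effect between endothelial and astroglial cells was tested with library as a block. Of 26 members tested, 5 were called (19.2%), 2 with a positive and 3 with a negative difference. Of all 13300 genes tested, 15.9% were called (7.9% positive and 8.04% negative), which is close to the share of the members. *Col4a2* fell further in endothelial than in astroglial cells (difference -2.13 ± 0.60 on the log2 scale, adjusted p = 0.0103). *Col27a1*, a fibrillar member, was at 6.4, 8.33 and 5.28 CPM at P3 and 10.7, 15.6 and 14.6 CPM at 3m in endothelial cells. There it had 16 UMIs at 3m and was not called (adjusted p = 0.125). In astroglial cells *Col27a1* fell, with a call that was lost in some alternatives as given above. The difference for *Col27a1* was 2.12 ± 0.67 (adjusted p = 0.023). The count was 3 without P3 replicate 1 or P3 replicate 2, 2 without 3m replicate 1, 3 without 3m replicate 2 and 0 without 3m replicate 3. In that last edgeR fit 6 of 28 members had an unadjusted p under 0.05.

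Genes that modify, process, bind or degrade collagen were taken from a list of 51. In whole preparations 47 were tested, and 7 were higher and 19 lower, against 34.5% of all genes called (18.4% higher and 16.1% lower). *Serpinh1*, the collagen chaperone of the endoplasmic reticulum, was at 415, 338 and 404 CPM at P3 and at 78.2, 58.9 and 64.5 CPM at 3m (log2 fold change -2.32 ± 0.15, adjusted p = 3.65e-06). In astroglial cells *Serpinh1* was at 241 ± 12.5 CPM at P3 and 139 ± 15.4 CPM at 3m and was not called (log2 fold change -0.61). It was called lower in endothelial clusters 7 and 17 (-2.01) and in PER_6 (-2.20). The part of cell makeup in the fall in whole preparations was not tested. *Pcolce2*, an enhancer of propeptide cleavage, rose from 1.16 ± 0.17 to 61.0 ± 8.79 CPM (log2 fold change 5.90, adjusted p = 1.17e-07) in these sums, whose oligodendrocyte share rose as given above. In astroglial cells *Pcolce2* was at 1.46 ± 0.15 CPM at P3 and 0.72 ± 1.25 CPM at 3m and was not called (adjusted p = 0.616).

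In astroglial cells 39 of the 51 were tested, and 5 were higher and 9 lower, against 32.1% of all genes called (15.8% higher and 16.3% lower), which is close to the share of the list. The prolyl hydroxylase subunits went both ways: *P4ha1* rose from 54.7 ± 7.1 to 142 ± 15.4 CPM (adjusted p = 5.09e-06) and *P4ha3* fell from 27.0 ± 2.79 to 7.41 ± 6.78 CPM (adjusted p = 0.00381). *Timp4*, an inhibitor of matrix metalloproteinases, rose from 172 ± 28.9 to 450 ± 6.68 CPM (adjusted p = 1.93e-05).

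In endothelial clusters 7 and 17, 33 were tested, and 5 were higher and 11 lower, against 22.3% of all genes called (11.6% higher and 10.7% lower). *Mmp9*, a gelatinase, had 849 UMIs at P3 and 0 at 3m. *Timp3*, a matrix-bound inhibitor, rose from 20.5 ± 3.72 to 392 ± 111 CPM (adjusted p = 4.31e-11), and *Bmp1*, a procollagen C-proteinase, fell from 32.9 ± 2.54 to 3.29 ± 0.76 CPM (adjusted p = 8.51e-06). In PER_6, 29 were tested, and 1 was higher and 8 lower, against 11.4% of all genes called (2.39% higher and 8.97% lower), the one that rose being *Timp3* (log2 fold change 3.63, adjusted p = 1.38e-22).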

How the data were processed

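Single-cell RNA-Seq was measured in 6 libraries, 3 per age, grouped by the sample labels. Per the study's methods, the authors mapped reads to mm10 and counted UMIs with Cell Ranger, and the deposited counts are raw UMI counts of 32285 genes in 16690 barcodes. The labels name Seurat 3.1.1 for the authors' processing. Cluster and sub-cluster names are the deposited annotation, made of cells in which more than 500 genes were detected and less than 10% of UMIs were mitochondrial. Doublets were not called here.

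Counts were summed per library and set of cells, since cells are not replicates. Sums were compared with edgeR 4.0.16 (quasi-likelihood, TMM scaling, filterByExpr) in R 4.3.3, two-sided, with Benjamini-Hochberg adjustment over all genes tested. Members and lists were chosen with earlier results of these data known. The rule for naming allowed every member, with fold changes for called members at a mean of 5 CPM or more in the higher age. Ratios and bounds of lower called members, and fold changes of members that were not called, were added after their values were seen. For the collagen-handling list, up to 6 called genes per comparison at 20 CPM or more could be named. *Pcolce2* in astroglial cells, and *Serpinh1* in astroglial cells, endothelial clusters and PER_6, were added after their values were seen. Levels by cluster used libraries with at least 20 cells. The sums compared between ages had no such minimum, and those of PER_6 at 3m held fewer cells. A member with 0 UMIs at one age was bounded with a floor of 3 UMIs over the group, and floors cover counting error only. Per the study's methods, the libraries of an age were independent preparations, each a pool of several animals, so p-values measure the spread between pools, and no preparation batch is given. An exact permutation test of 3 against 3 cannot go below p = 0.1 and was not used. Alternatives were RLE scaling, no scaling, DESeq2, no filter, a replicate block, leaving out each library, thinning and other sets of cells. The fits were tested on simulated data.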

Additional observations from a re-analysis of the deposited data

Results flagged for a closer look

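In the interaction test (library as a block), the age effect (3m over P3) differed between endothelial and astroglial cells for 5 of 26 members. That is 19.2% of the members tested, close to the 15.9% called among all 13300 genes tested. The difference, endothelial minus astroglial on the log2 scale, was 4.68 for *Col4a4*, 2.12 for *Col27a1*, -2.13 for *Col4a2*, -4.10 for *Col7a1* and -9.26 for *Col11a2*. *Col4a4* had 8 UMIs at P3 and 6 at 3m in endothelial cells, and *Col11a2* had 4 and 0 there. *Col7a1* had 14 and 3 UMIs in astroglial cells. These 3 differences rest on few UMIs in one of the cell classes. Without 3m replicate 3 none of the 5 was called by edgeR, with adjusted p from 0.0533 to 0.14.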

How the results depend on the processing

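No called member changed direction under any alternative run. In whole preparations the count of 24 called members lay between 20 and 24 with a library left out. In astroglial cells the 13 called members became 6 to 12 with a library left out and 5 when sums were thinned to the smallest total (8 members tested). In endothelial clusters 7 and 17 the 10 became 6 to 9 with a library left out and 4 when thinned. They became 2 without cells with 2 or more mural marker UMIs. Fewer members were tested in each case. In PER_6 the 6 became 2 to 7 with a library left out, 11 with no filter on low counts and 2 when thinned. The 5 members whose age effect differed between endothelial and astroglial cells became 3 with all 4 END clusters, where the cause was not tested, and 0 to 6 with a library left out. Thinning in endothelial cells and PER_6, and the sets without AST_P3_4 or sub-cluster 12, were chosen after seeing the data.

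With no scaling beyond totals the median of all genes moved to -0.24 in astroglial cells and 0.41 for the difference of age effects, and the higher share of calls went from 49.3% to 38.6% and from 49.6% to 75.9%. In PER_6 the 719 genes called became 380 with no scaling, 426 with RLE scaling, 493 with DESeq2 and 1065 with LOW_21 added, and the higher share went from 21% to 60%, 46% and 56.8% under the first 3. With the replicate block, 24, 11, 10 and 9 members were called in whole preparations, astroglial cells, endothelial clusters and PER_6. Deviations of same-numbered libraries correlated at 0.481, 0.44 and -0.005 in whole preparations and at 0.206, 0.099 and 0.039 in astroglial cells, and P3 replicate 3 correlated best with 3m replicate 2 in both, so the numbers were not taken to pair the libraries. Depth at 3m limits members of a few CPM.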
